A study of Mus musculus with 8 samples.

Results

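The genes described here are 10 bone cell genes measured in the whole mouse cochlea, chosen by symbol for their roles in osteoblasts, osteocytes, osteoclasts and the control of bone resorption. All 10 were found, among 47502 distinct gene symbols in the count tables. Sp7, Ibsp, Bglap and Bglap2 stand for osteoblasts, Dmp1 and Phex for osteocytes, Acp5 and Ctsk for osteoclasts, and Tnfsf11 and Tnfrsf11b for the signal between them. RNA was measured in the cochleae of 4 wild-type (WT) mice and 4 Opa1+/- mice, 1 library per mouse, at 21 days of age and without treatment. The Opa1+/- mice were heterozygous for the knock-in allele Opa1delTTAG, a deletion first found in patients with dominant optic atrophy, on a mixed C57BL/6 J and 129 Sv/Pas background. The WT mice were control littermates without that allele. The allele is in the germ line and so in every cell, and only heterozygotes could be studied because homozygous embryos die. Mice are named by genotype and by the animal number in their labels, which is 4, 5, 6 or 8 for WT and 2 or 7 for Opa1+/-. The other two Opa1+/- mice had 3-digit numbers and are called L (the lower number) and H (the higher).

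The otic capsule is the dense bone that encloses the cochlea, and it is remodelled very little once it has formed. Osteoblasts lay down the matrix and mineral, some become buried in it as osteocytes, and osteoclasts resorb it. Osteoclasts form when RANKL, the product of Tnfsf11, binds its receptor RANK, and osteoprotegerin, the product of Tnfrsf11b, is a secreted decoy receptor that captures RANKL. Osteoprotegerin is made by soft tissues of the inner ear and is known for holding back remodelling of the capsule. The dissected cochleae held bone, soft tissue and blood together, so the bone of the capsule could not be separated from other bone in the samples. In such bulk samples, fewer cells of a type and less RNA per cell cannot be told apart.

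For none of the 10 genes was a difference between the genotypes detected beyond the spread between mice. At an adjusted p under 0.05 in edgeR (quasi-likelihood test, p-values adjusted over 19366 genes by the Benjamini-Hochberg method), 0 of the 10 passed, against 0.0258% of all genes tested (5 genes). At an unadjusted p under 0.05, 0 of the 10 passed, against 6.72% of all genes. DESeq2's Wald test called 0 of the 10 at an adjusted p under 0.05, against 0.129% of all genes, and 0 at an unadjusted p under 0.05, against 5.8% of all genes. In every one of the 10 genes the values of the 4 WT and the 4 Opa1+/- mice overlapped, whereas the genotypes did not overlap in 4.31% of all genes. The lowest unadjusted p was that of Tnfrsf11b, at 0.0886. In the edgeR fit of all 8 mice, the 95% intervals of all 10 fold changes lay between 0.525-fold and 1.53-fold. A 2-fold change in either direction was outside each of them in that fit. The end at 0.525-fold belonged to Tnfsf11, which had 11 to 26 counts in each library. Without Opa1+/- mouse 7 the log2 fold change of Tnfsf11 was -0.53 instead of -0.31, so its limit is stated for all 8 mice only.

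**Figure D1:**
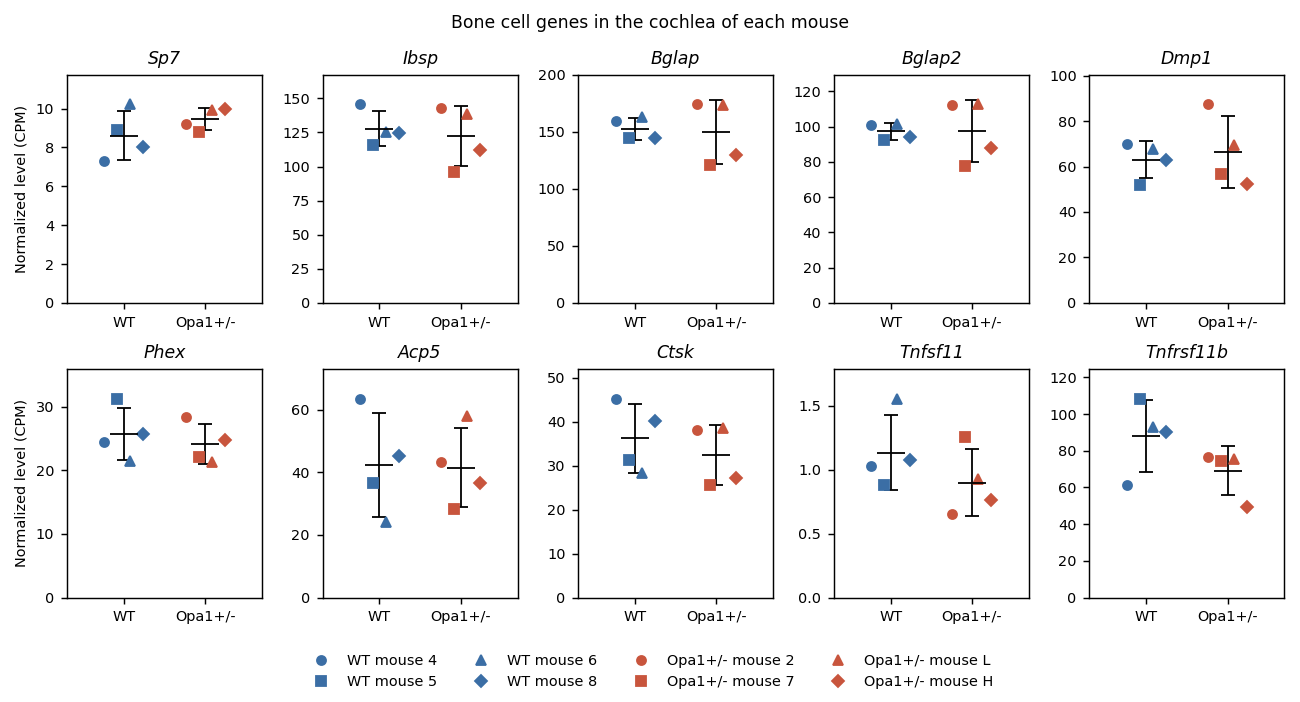
Normalized level of each bone cell gene in CPM (counts per 1000000 counts of the scaled library, linear axes from 0), with 1 point per mouse, the mean as a horizontal bar and the SD as whiskers (n = 4 per genotype). The WT and Opa1+/- points overlap in all 10 panels, and Tnfrsf11b is lowest in Opa1+/- mouse H at 49.2 CPM.

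Levels are given as CPM, the counts of a gene per 1000000 counts of its scaled library. The libraries held 15978051 to 20828030 counts on named genes. The label of genotype was checked with Opa1, which encodes the fusion protein of the inner mitochondrial membrane. Opa1 was at 119, 126, 112 and 122 CPM in WT mice 4, 5, 6 and 8, and at 63.5, 68.4, 60.4 and 70.02 CPM in Opa1+/- mice 2, 7, L and H. Every Opa1+/- mouse was below every WT mouse, with a log2 fold change of -0.87 ± 0.07 (SE, adjusted p = 0.00515 in edgeR, p = 0.0286 in the exact two-sided permutation test, the smallest that 4 against 4 allows). In the 17 other settings and left-out mice, a range added after seeing the data, the log2 fold change of Opa1 stayed between -0.90 and -0.83. Its adjusted p was above 0.05 in 2 of them, at 0.0704 without Opa1+/- mouse 2 and 0.260 without both mice with 3-digit numbers (edgeR). WT mouse 4 stood apart from the other WT mice in blood and marrow genes, with a sum of 1329.8 CPM over 8 neutrophil and marrow markers while the others of its genotype had 407 to 497 CPM. All 8 of these markers, and all 7 erythroid markers, were above the filter on low counts. Xist had at most 8 counts in any library, and Ddx3y, a Y-linked gene, had at least 55.7 CPM in all 8. By these genes all 8 mice were male, so no female is covered here.

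Bglap and Bglap2 both encode osteocalcin, a small protein secreted by mature osteoblasts, and they lie next to each other with a related gene, Bglap3, on the minus strand of chromosome 3 (GRCm38). Bglap spans positions 88383501 to 88384464, Bglap2 spans 88377736 to 88378699, and Bglap3 spans 88368616 to 88372743. Their coding sequences are shown because they decide how well reads of these genes can be assigned. The sequences come from the GENCODE transcripts of GRCm38, run from the start codon to the stop codon, and carry in capitals the 13 of 288 positions at which the 3 genes are not all the same.
Bglap: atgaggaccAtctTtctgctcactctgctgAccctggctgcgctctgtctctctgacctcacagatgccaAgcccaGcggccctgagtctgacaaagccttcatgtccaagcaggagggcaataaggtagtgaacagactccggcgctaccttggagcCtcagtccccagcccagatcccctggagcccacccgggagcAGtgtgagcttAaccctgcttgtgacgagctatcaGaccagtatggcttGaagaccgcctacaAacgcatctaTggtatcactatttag
Bglap2: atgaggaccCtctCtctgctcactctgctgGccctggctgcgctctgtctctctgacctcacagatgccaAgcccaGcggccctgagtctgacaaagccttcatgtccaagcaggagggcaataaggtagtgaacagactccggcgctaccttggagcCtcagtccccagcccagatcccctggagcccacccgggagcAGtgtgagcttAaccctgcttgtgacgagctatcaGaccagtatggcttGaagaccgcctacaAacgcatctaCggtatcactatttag
Bglap3: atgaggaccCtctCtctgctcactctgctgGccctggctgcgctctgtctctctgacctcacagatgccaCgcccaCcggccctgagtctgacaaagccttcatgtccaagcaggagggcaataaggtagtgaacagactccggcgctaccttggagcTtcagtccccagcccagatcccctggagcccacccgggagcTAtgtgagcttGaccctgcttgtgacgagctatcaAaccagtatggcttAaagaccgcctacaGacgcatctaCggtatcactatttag

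Bglap and Bglap2 were identical over 98.6% of their coding sequence. The 4 differences, counted from 1 at the A of the start codon with the base of Bglap first, were A10C, T14C, A31G and T273C. Between positions 31 and 273 the coding sequences have no difference, and the longest run shared by their transcripts was 241 bases, against a read length of 80 bases. Of all 80-base windows of Bglap transcripts, 64.3% also occurred in Bglap2 or Bglap3, and of those of Bglap2, 69.4% occurred in Bglap or Bglap3. None of the 80-base windows of the other 8 genes occurred in the transcripts of another gene. The division of reads between Bglap and Bglap2 is therefore uncertain, and how the authors counted reads with more than 1 match is not given in the sources used here.

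The other 8 genes lie at these positions of GRCm38. Dmp1 (chromosome 5, 104202613 to 104214102, plus strand) and Ibsp (104299171 to 104311469, plus strand) are neighbours in a cluster of genes for bone matrix proteins. Ctsk is on chromosome 3 (95499256 to 95509362, plus strand) and Acp5 on chromosome 9 (22126727 to 22135711, minus strand). Sp7 (102356606 to 102367182, minus strand) and Tnfrsf11b (54250619 to 54278484, minus strand) are on chromosome 15. Tnfsf11 is on chromosome 14 (78277445 to 78308043, minus strand) and Phex on chromosome X (157162075 to 157415312, minus strand). GENCODE annotates all 10 as protein-coding.

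Levels were compared between genes per length, as CPM per kilobase of the longest coding transcript. In WT mice Bglap had 347 ± 22.2 CPM per kilobase, Bglap2 had 207 ± 9.94 and Ibsp had 61.8 ± 6.13 (SD, n = 4 each). The ranges over the 8 mice of these osteoblast matrix genes did not overlap, and their order was the same in 8 of 8 mice. For Bglap and Bglap2 the order may depend on how their shared reads were divided, which is not known here. Tnfrsf11b followed at 31.3 ± 6.94, Acp5 at 29.3 ± 11.4, Ctsk at 24.0 ± 5.17 and Dmp1 at 22.8 ± 2.94 CPM per kilobase. These 4 genes could not be ranked, since each had a range that overlapped that of its neighbours, and Tnfrsf11b exceeded Acp5 in 4 of 8 mice. Phex, Sp7 and Tnfsf11 were lowest, at 4.11 ± 0.647, 2.78 ± 0.404 and 0.507 ± 0.131 CPM per kilobase, again in the same order in 8 of 8 mice. In Opa1+/- mice the first 3 and last 3 genes had the same ranks, while Acp5 came before Tnfrsf11b and Dmp1 before Ctsk.

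Of the osteoblast genes, Sp7 encodes osterix, the transcription factor that commits precursors to the osteoblast fate. Sp7 was at 7.31, 8.89, 10.2 and 8.03 CPM in WT mice 4, 5, 6 and 8, and at 9.22, 8.77, 9.90 and 9.96 CPM in Opa1+/- mice 2, 7, L and H. Both the lowest and the highest of the 8 values were in WT mice, with the Opa1+/- mice between them. For Sp7, the log2 fold change was 0.14 ± 0.12 (SE, 95% interval -0.13 to 0.41, unadjusted p = 0.285 and adjusted p = 0.843 in edgeR). With single mice left out, the estimate for Sp7 ran from 0.067 without WT mouse 4 (unadjusted p = 0.574, adjusted p = 0.873 in edgeR) to 0.23 without WT mouse 6 (unadjusted p = 0.0704, adjusted p = 0.650 in edgeR), and it was 0.064 without both Opa1+/- mice with 3-digit numbers.

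Ibsp encodes bone sialoprotein, a matrix protein that binds mineral. Ibsp was at 146, 116, 125 and 125 CPM in WT mice 4, 5, 6 and 8, and at 143, 96.3, 139 and 112 CPM in Opa1+/- mice 2, 7, L and H. Opa1+/- mice 2 and L were near the top of the WT range, and Opa1+/- mice 7 and H were below every WT mouse. For Ibsp, the log2 fold change was -0.06 ± 0.13 (SE, 95% interval -0.35 to 0.23, adjusted p = 0.943 in edgeR).

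The osteocalcin genes showed the same division among the Opa1+/- mice. Bglap was at 159.5, 144, 163 and 144 CPM in WT mice 4, 5, 6 and 8, and at 174, 121, 173 and 129.9 CPM in Opa1+/- mice 2, 7, L and H. Bglap2 was at 101, 92.6, 102 and 94.2 CPM in WT mice 4, 5, 6 and 8, and at 112, 77.9, 113 and 87.7 CPM in Opa1+/- mice 2, 7, L and H. For both genes, Opa1+/- mice 2 and L were above every WT mouse and Opa1+/- mice 7 and H were below every WT mouse, so that the WT range lay inside the Opa1+/- range. The log2 fold change was -0.03 ± 0.12 for Bglap (SE, 95% interval -0.31 to 0.25, adjusted p = 0.972 in edgeR). For Bglap2 it was 0.0044 ± 0.12 (SE, 95% interval -0.26 to 0.27, adjusted p = 0.996 in edgeR). The ratio of Bglap to Bglap2 stayed between 1.48 and 1.60 in the 8 mice, with a mean of 1.57 ± 0.03 for WT against 1.53 ± 0.03 for Opa1+/- (n = 4 each, SD).

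**Figure D2:**
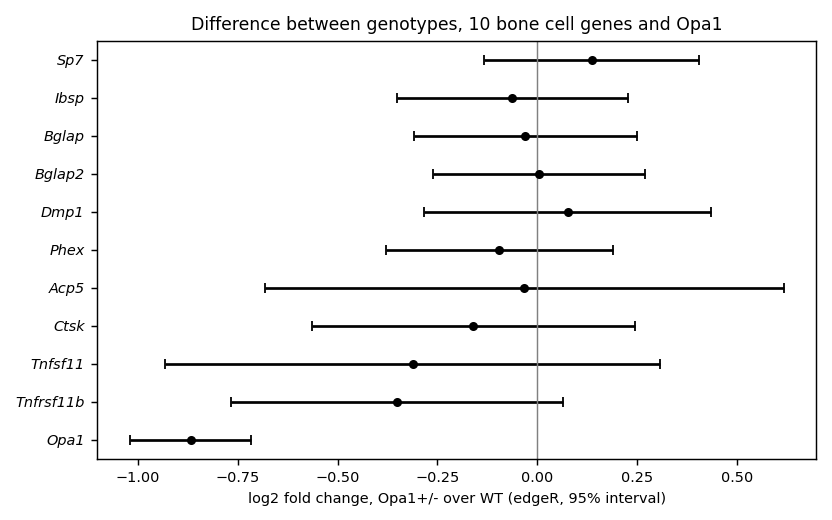
Log2 fold change of each bone cell gene and of Opa1 between Opa1+/- and WT mice, as points with 95% intervals from edgeR (n = 4 per genotype). The interval of Opa1 lies wholly below 0, from -1.02 to -0.72, and those of all 10 bone cell genes include 0.

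Of the osteocyte genes, Dmp1 encodes a matrix phosphoprotein that osteocytes need for mineralization. Dmp1 was at 69.9, 51.7, 67.9 and 63.0 CPM in WT mice 4, 5, 6 and 8, and at 87.4, 56.7, 69.7 and 52.3 CPM in Opa1+/- mice 2, 7, L and H. Opa1+/- mouse 2 had the highest value of all 8 mice, and the other 3 Opa1+/- mice lay within the WT range. For Dmp1, the log2 fold change was 0.08 ± 0.16 (SE, 95% interval -0.28 to 0.44, adjusted p = 0.943 in edgeR). Without Opa1+/- mouse 2 it was -0.081, with an adjusted p of 0.935 in edgeR, and the range over all left-out mice was -0.081 to 0.17.

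Phex encodes an endopeptidase of osteoblasts and osteocytes that is known from X-linked hypophosphatemia. Phex was at 24.5, 31.2, 21.5 and 25.8 CPM in WT mice 4, 5, 6 and 8, and at 28.3, 22.2, 21.2 and 24.8 CPM in Opa1+/- mice 2, 7, L and H. WT mouse 5 had the highest value and Opa1+/- mouse L the lowest, and the genotypes overlapped over most of their ranges. For Phex, the log2 fold change was -0.09 ± 0.13 (SE, 95% interval -0.38 to 0.19, adjusted p = 0.907 in edgeR).

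The promoters of the bone cell genes were searched for binding motifs of bone transcription factors. RefSeq promoter windows of 300 bases (GRCm38.p6, around annotated transcription starts) were matched for 7 of the 10 genes, in 10 windows, and Bglap2, Sp7 and Tnfrsf11b had no entry. On both strands, AACCACA, a Runx motif, was in 1 of the 10 windows, that of Dmp1, and in 5.27% of all 32851 windows. The E-box CACGTG was also in 1 window, an upstream one of Dmp1, and in 7.15% of all windows. The E-box CATGTG was in windows of Acp5, Bglap, Dmp1 and Phex, and in 14.2% of all windows. The windows of Dmp1 (chr5:104202367-104202666, plus strand) and Bglap (chr3:88384417-88384716, minus strand) are shown to give the place of these letters. Capitals mark AACCACA in Dmp1 and CACATG, which is CATGTG on the opposite strand, in Bglap.
Dmp1: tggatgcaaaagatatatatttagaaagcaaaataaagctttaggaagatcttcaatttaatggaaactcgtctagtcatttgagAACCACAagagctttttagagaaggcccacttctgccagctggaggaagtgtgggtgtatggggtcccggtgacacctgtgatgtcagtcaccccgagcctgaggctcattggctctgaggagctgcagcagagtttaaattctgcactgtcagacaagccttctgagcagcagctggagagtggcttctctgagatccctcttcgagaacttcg
Bglap: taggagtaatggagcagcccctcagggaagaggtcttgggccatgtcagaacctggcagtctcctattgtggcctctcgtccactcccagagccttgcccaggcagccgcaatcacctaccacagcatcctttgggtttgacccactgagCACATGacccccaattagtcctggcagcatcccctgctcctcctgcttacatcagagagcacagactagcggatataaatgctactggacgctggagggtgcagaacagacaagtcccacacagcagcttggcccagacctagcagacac
A match of this kind describes the letters and is not evidence of binding. Only these exact strings were searched, so a window without a match may still hold a variant of a motif. The Bglap window holds taccaca, which differs from AACCACA in its first base and was not counted.

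Of the osteoclast genes, Acp5 encodes tartrate-resistant acid phosphatase, the classical stain for osteoclasts. Acp5 was at 63.4, 36.7, 24.0 and 45.3 CPM in WT mice 4, 5, 6 and 8, and at 43.2, 28.3, 57.8 and 36.6 CPM in Opa1+/- mice 2, 7, L and H. The WT mice alone spread from 24.0 to 63.4 CPM, and all 4 Opa1+/- mice lay between these values. For Acp5, the log2 fold change was -0.03 ± 0.29 (SE, 95% interval -0.68 to 0.62, adjusted p = 0.987 in edgeR) and had the widest interval of the 10 genes. Its direction turned with single mice, with 0.22 without WT mouse 4, 0.12 without Opa1+/- mouse 7 and 0.020 without Opa1+/- mouse H, none of them with an adjusted p below 0.803 in edgeR. Acp5 shares up to 137 exonic bases with 6530413G14Rik on the opposite strand, and whether the counting used the strand is not given in the sources used here.

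Ctsk encodes cathepsin K, the protease with which osteoclasts digest bone collagen. Ctsk was at 45.2, 31.3, 28.3 and 40.2 CPM in WT mice 4, 5, 6 and 8, and at 38.2, 25.7, 38.7 and 27.3 CPM in Opa1+/- mice 2, 7, L and H. The highest 2 values were in WT mice 4 and 8, and the lowest 2 in Opa1+/- mice 7 and H. For Ctsk, the log2 fold change was -0.16 ± 0.18 (SE, 95% interval -0.57 to 0.24, adjusted p = 0.886 in edgeR). It was below 0 with every single mouse left out, from -0.26 to -0.038.

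WT mouse 4, which was highest in both osteoclast genes, was also the WT mouse with the most neutrophil, marrow and erythroid RNA. Its 7 erythroid markers summed to 21425 CPM, where the rest of the WT group had 7739 to 12300.0 CPM and the Opa1+/- group 15039.8 to 25032 CPM. Its 8 neutrophil and marrow markers summed to 1329.8 CPM, against 420.3 to 1083 CPM in Opa1+/- mice. Opa1+/- mouse H had the highest erythroid sum of all 8 mice, 25032 CPM, and the second highest neutrophil and marrow sum, 1083 CPM, but its Ctsk, at 27.3 CPM, was the second lowest of the 8 and its Acp5 was at 36.6 CPM. The 7 macrophage markers summed to 86.4 to 154 CPM among WT and to 103 to 141 CPM among Opa1+/- mice, and WT mouse 4 had 119 CPM. The part of marrow or blood in the osteoclast genes was not tested. With single mice left out, the log2 fold change of Ctsk ran from -0.26 without WT mouse 6 (adjusted p = 0.706 in edgeR) to -0.038 without WT mouse 4 (adjusted p = 0.960 in edgeR).

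**Figure D3:**
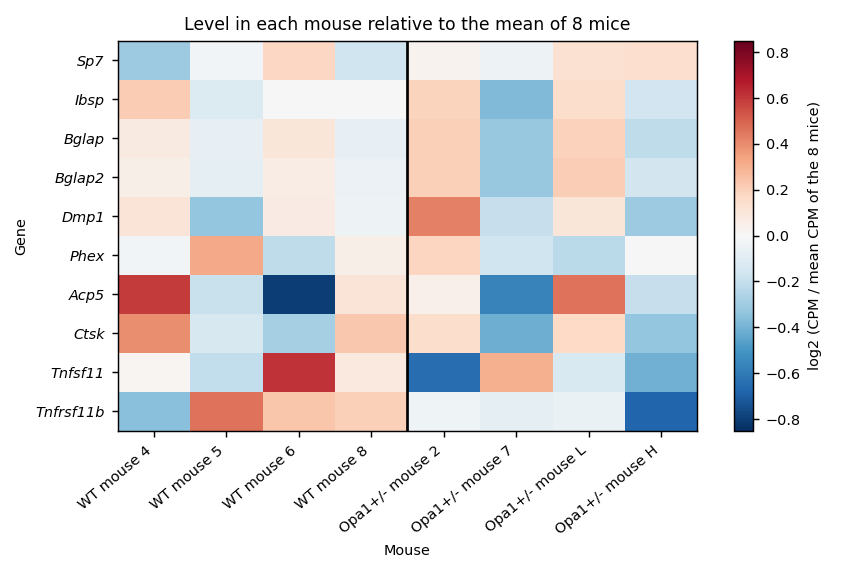
Level of each bone cell gene (rows) in each mouse (columns) as log2 of its CPM over the mean CPM of the 8 mice, with red above and blue below the mean and the black line between WT and Opa1+/- mice. Opa1+/- mice 7 and H are below the mean in 9 of 10 genes, and Opa1+/- mice 2 and L are above it in 8 and 7.

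Tnfsf11, the gene of RANKL, had the lowest level per length of the 10, with 11 to 26 counts in each library. Tnfsf11 was at 1.03, 0.879, 1.55 and 1.08 CPM in WT mice 4, 5, 6 and 8, and at 0.650, 1.25, 0.928 and 0.766 CPM in Opa1+/- mice 2, 7, L and H. WT mouse 6 had the highest value and Opa1+/- mouse 2 the lowest, and at this depth the genotypes overlapped. For Tnfsf11, the log2 fold change was -0.31 ± 0.28 (SE, 95% interval -0.93 to 0.31, unadjusted p = 0.287 and adjusted p = 0.844 in edgeR), so that a fall to 0.525-fold and a rise to 1.24-fold both lay at the ends of the interval. With single mice left out, the estimate for Tnfsf11 ran from -0.53 without Opa1+/- mouse 7 to -0.13 without WT mouse 6.

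Tnfrsf11b, the gene of osteoprotegerin, had 771 to 2216 counts in each library. Tnfrsf11b was at 61.4, 108, 92.8 and 90.4 CPM in WT mice 4, 5, 6 and 8, and at 76.9, 74.6, 75.7 and 49.2 CPM in Opa1+/- mice 2, 7, L and H. WT mice 5, 6 and 8 were above all 4 Opa1+/- mice, WT mouse 4 was below 3 of them, and Opa1+/- mouse H was lowest of all. The mean of Tnfrsf11b was 88.2 ± 19.5 CPM for WT against 69.1 ± 13.3 CPM for Opa1+/- (n = 4 each, SD). For Tnfrsf11b, the log2 fold change was -0.35 ± 0.19 (SE, 95% interval -0.77 to 0.06, unadjusted p = 0.0886 and adjusted p = 0.761 in edgeR). The exact two-sided permutation test of the CPM values gave p = 0.143 (n = 4 each).

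The estimate for Tnfrsf11b was below 0 in all 17 other settings and left-out mice, from -0.49 to -0.22. It was -0.49 when WT mouse 4 was left out (unadjusted p = 0.0111, adjusted p = 0.397 in edgeR). In that comparison 1 of the 10 genes, Tnfrsf11b, was lower in Opa1+/- mice at an unadjusted p under 0.05, against 4.33% of all genes. Without Opa1+/- mouse H it was -0.22, with an unadjusted p of 0.211 and an adjusted p of 0.922 in edgeR. Without WT mouse 5 it was -0.24, and without both Opa1+/- mice with 3-digit numbers it was -0.22. With no filter on low counts the unadjusted p was 0.0461 and the adjusted p 0.753 in edgeR, again as 1 of the 10 genes, against 1.95% of all genes lower at an unadjusted p under 0.05. The 5 markers of spiral ligament and limbus fibrocytes summed to 2935 CPM in WT mouse 4 and 3758 to 4215 CPM in the other WT mice. In Opa1+/- mice they summed to 3036 CPM in mouse H and to 3209 to 4008 CPM in the others. Most of each sum was Coch, at 2301 CPM in mouse H and 2482 CPM in WT mouse 4, the lowest of the 8 mice. Pou3f4, Tbx18 and Slc26a4 were also lowest in these mice. They were at 27.8, 38.0 and 41.4 CPM in mouse H and 30.9, 36.0 and 42.2 CPM in WT mouse 4. Only Otos differed, at 628 CPM in mouse H, the highest of the 8 mice, and at 344 CPM in WT mouse 4, the lowest. The part of fibrocyte content in the level of Tnfrsf11b was not tested.

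**Figure D4:**
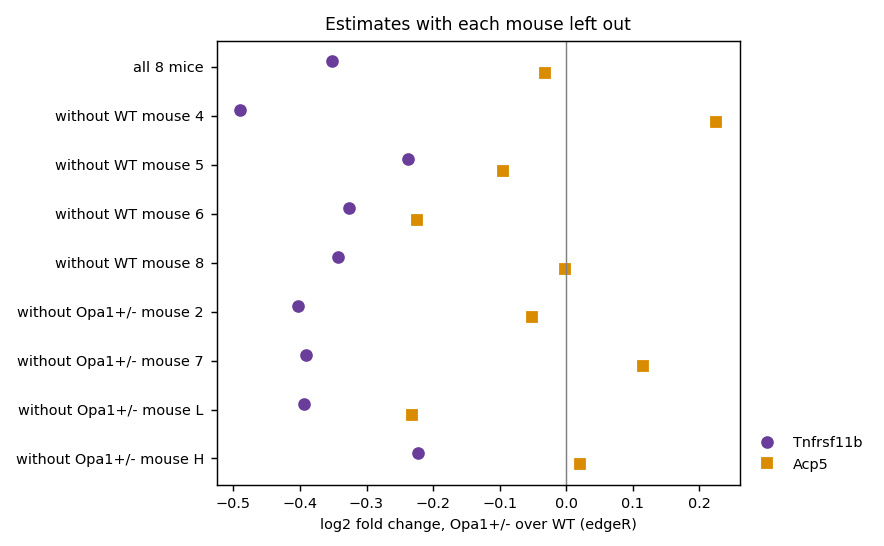
Log2 fold change of Tnfrsf11b (circles) and Acp5 (squares) between Opa1+/- and WT mice from edgeR with all 8 mice and with each mouse left out. Tnfrsf11b stays below 0, from -0.49 to -0.22, whereas Acp5 lies on both sides of 0, from -0.23 to 0.22.

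The number of RANKL counts per 100 of osteoprotegerin, after normalization, was 1.67, 0.812, 1.67 and 1.19 in WT mice 4, 5, 6 and 8. It was 0.846, 1.68, 1.23 and 1.56 in Opa1+/- mice 2, 7, L and H. The genotypes overlapped almost completely, with means of 1.34 ± 0.418 and 1.33 ± 0.373 (SD, n = 4 each).

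Summed by role, the genotypes overlapped in every group. The osteoblast genes summed to 386 ± 24.3 CPM for WT against 379 ± 67.8 CPM for Opa1+/- (n = 4 each, SD). The osteocyte genes summed to 88.8 ± 4.68 and 90.6 ± 17.8 CPM, and the osteoclast genes to 78.6 ± 24.1 and 73.9 ± 18.8 CPM. Per 100 CPM of osteoblast genes there were 20.3 ± 5.69 CPM of osteoclast genes for WT against 19.3 ± 1.96 CPM for Opa1+/-. Among the single mice, the sum over all 10 genes was highest in Opa1+/- mouse 2 at 713 CPM and lowest in Opa1+/- mouse 7 at 513 CPM. Opa1+/- mouse 7 was the lowest of the 8 mice in 4 genes, Ibsp, Bglap, Bglap2 and Ctsk. WT mouse 4 was the highest in 3 genes, Ibsp, Acp5 and Ctsk.

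The spread between mice of the same genotype differed among the 10 genes. The pooled SD of log2 CPM within genotypes was 0.51 for Acp5, 0.34 for Tnfsf11, 0.33 for Tnfrsf11b and 0.31 for Ctsk, against a median of 0.17 over all genes tested. It was 0.16 for Sp7, and 0.19 to 0.27 for the other 5 genes. In 9 of the 10 genes it was above the median of all genes. The SD of CPM was larger in Opa1+/- than in WT mice for Ibsp, Bglap, Bglap2 and Dmp1, and larger in WT mice for the other 6, and these differences in spread were not tested.

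Correlations across the 8 mice were computed for 6 pairs of genes on log2 CPM, with exact two-sided permutation p-values adjusted over the 6 pairs by the Benjamini-Hochberg method. All values of 1 mouse come from 1 library, so each pair shares its depth and normalization. Bglap and Bglap2 had Pearson's r = 0.986 (exact permutation p = 9.92e-05, adjusted p = 0.000595) and Spearman's rho = 0.952 (exact permutation p = 0.00114, adjusted p = 0.00685). Pearson's r was 0.981 without the 2 mice farthest from the median of Bglap. Reads of these genes cannot always be told apart, and the part of the counting in this r was not tested.

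The osteoclast genes Acp5 and Ctsk had r = 0.881 (exact permutation p = 0.0035, adjusted p = 0.0105) and rho = 0.905 (exact permutation p = 0.00456, adjusted p = 0.0137). Pearson's r was 0.866 without WT mice 4 and 6, the farthest from the median of Acp5, and 0.920 with the genotype means removed. Without WT mouse 4 the adjusted p was 0.0536, with r = 0.825. Ibsp and Ctsk, an osteoblast and an osteoclast gene, had r = 0.852 (exact permutation p = 0.00751, adjusted p = 0.0150) and rho = 0.786 (exact permutation p = 0.0279, adjusted p = 0.0559). For Ibsp and Ctsk, r was 0.807 (exact permutation, adjusted p = 0.0536) without WT mouse 4 and 0.805 (exact permutation, adjusted p = 0.0861) without Opa1+/- mouse 7. The call was thus lost without either of these 2 mice, while r stayed close to its value over all 8. Without both together r was 0.721.

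The other 3 pairs did not pass. Dmp1 and Phex, both osteocyte genes, had r = -0.105 (exact permutation p = 0.801, adjusted p = 0.801) and rho = -0.262 (exact permutation p = 0.536, adjusted p = 0.752). Sp7 and Ibsp had r = -0.191 (exact permutation p = 0.645, adjusted p = 0.774) and rho = -0.143 (exact permutation p = 0.752, adjusted p = 0.752). Tnfsf11 and Tnfrsf11b had r = 0.333 (exact permutation p = 0.424, adjusted p = 0.636) and rho = 0.190 (exact permutation p = 0.665, adjusted p = 0.752). Without the 2 mice farthest from the median of the first gene, r was -0.339, 0.211 and 0.290 for these pairs.

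**Figure D5:**
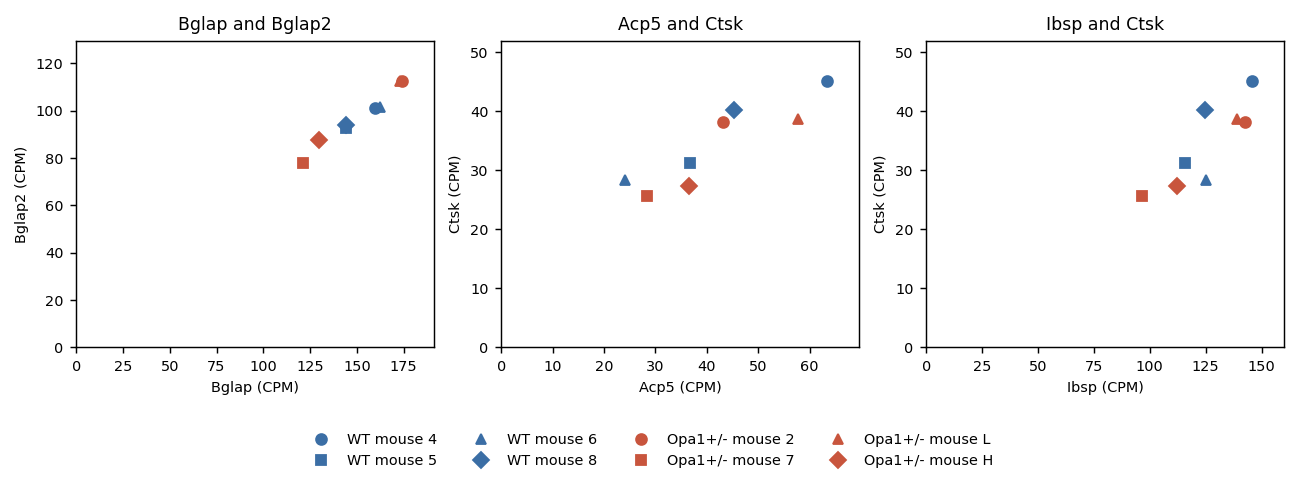
Normalized levels in CPM of Bglap against Bglap2, Acp5 against Ctsk and Ibsp against Ctsk, with 1 point per mouse and both axes from 0. The osteocalcin genes lie close to a line through 0 (ratio 1.48 to 1.60), and WT mouse 4 is at the upper end of both other panels.

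The patterns of Ibsp, Ctsk and Tnfrsf11b across the 8 mice were compared with those of all genes tested by Pearson's r on log2 CPM, as a description. Outside the 10 bone cell genes, those most like Ibsp were Mfap1a (r = 0.971), Upb1 (r = 0.965) and Grpel2 (r = 0.952). Those most like Ctsk were Cpn1 (r = 0.953), Akap13 (r = 0.951) and Pitx1 (r = 0.950). Those most like Tnfrsf11b were Cyfip1 (r = 0.981), Lrp6 (r = 0.980) and 0610030E20Rik (r = 0.977). Of the other bone cell genes, Bglap2 (r = 0.925) and Bglap (r = 0.917) had a higher r with Ibsp than 99.9% of all genes tested, the osteoclast genes Ctsk (r = 0.852) and Acp5 (r = 0.693) a higher one than 99.7% and 96.8%, and Dmp1 (r = 0.777) than 98.9%. The osteoblast gene Sp7 (r = -0.191), the osteocyte gene Phex (r = 0.0764), Tnfrsf11b (r = -0.0243) and Tnfsf11 (r = -0.296) exceeded 31.6%, 60.0%, 49.7% and 21.3% of genes, so that likeness to Ibsp did not follow the division into osteoblast, osteocyte and osteoclast genes. With Ctsk, Acp5 (r = 0.881) and Ibsp had a higher r than 99.7% and 99.3% of genes, the other bone cell genes ranging from Sp7 (r = -0.596) to Bglap2 (r = 0.666). No bone cell gene was close to Tnfrsf11b in pattern, with Tnfsf11 the highest at r = 0.333, a value that 27.3% of all genes tested exceeded.

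Other genes of bone were counted in 4 lists, and no gene of any list passed at an adjusted p under 0.05 in edgeR. In the osteoblast list, which covers differentiation factors, matrix proteins and their regulators, 18 of 19 genes were tested, 1 was higher at an unadjusted p under 0.05 and 0 were lower. The share of all genes was 3.51% for higher and 3.22% for lower. The median log2 fold change of the osteoblast list was 0.0060, beside 0.00040 over all genes tested. The gene that was higher was Phospho1, a phosphatase that supplies phosphate for mineralization. Phospho1 was at 23.9, 30.9, 28.7 and 23.5 CPM in WT mice 4, 5, 6 and 8, and at 31.9, 31.8, 29.5 and 31.7 CPM in Opa1+/- mice 2, 7, L and H. All 4 Opa1+/- mice were above WT mice 4, 6 and 8, and WT mouse 5 was within their range. The log2 fold change of Phospho1 was 0.22 ± 0.09 (SE, unadjusted p = 0.0402, adjusted p = 0.728 in edgeR). Pth1r, the receptor of parathyroid hormone, had 0.22 ± 0.10 (SE, unadjusted p = 0.0509, adjusted p = 0.741 in edgeR), and Lrp6, a Wnt co-receptor, had -0.18 ± 0.09 (SE, unadjusted p = 0.0955, adjusted p = 0.762 in edgeR).

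In the osteocyte list 6 of 6 genes were tested, 0 passed at an unadjusted p under 0.05 in edgeR and the median log2 fold change was 0.06. Mepe, a matrix phosphoglycoprotein of osteocytes, had 0.30 ± 0.26 (SE, adjusted p = 0.843 in edgeR). Irx5 and Pdpn followed, with log2 fold changes of 0.06 and -0.03. In the osteoclast list 14 of 16 genes were tested, 0 passed at an unadjusted p under 0.05 in edgeR, and the median was -0.01. Its lowest unadjusted p-values were those of Ostm1 (0.0976), Fos (0.153) and Traf6 (0.188), with log2 fold changes of -0.11, 0.31 and -0.09 and adjusted p-values of 0.763 to 0.802 in edgeR.

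In the list of RANK signalling, the macrophage colony-stimulating factor pathway and cytokines, 8 of 10 genes were tested, 0 were higher and 1 was lower at an unadjusted p under 0.05, and the median log2 fold change was -0.02. The gene that was lower was Lgr4, a receptor of R-spondins that also binds RANKL. Lgr4 was at 35.5, 35.3, 37.1 and 38.7 CPM in WT mice 4, 5, 6 and 8, and at 34.9, 30.4, 32.6 and 33.2 CPM in Opa1+/- mice 2, 7, L and H. Every Opa1+/- mouse was below every WT mouse, by a margin of 0.418 CPM, a separation seen in the lower direction in 2.33% of all genes. The log2 fold change of Lgr4 was -0.16 ± 0.06 (SE, unadjusted p = 0.0233, adjusted p = 0.722 in edgeR). Il1b had 0.35 ± 0.34 and Tnfsf10 had -0.16 ± 0.26 (SE, adjusted p = 0.859 and 0.923 in edgeR). Wnt1, Calcr, Ocstamp, Il6 and Tnf did not reach the filter on low counts and had at most 12 counts in any library.

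The markers of other cells in the samples gave no call either. Of 6 tested of 8 cartilage markers, 8 of 8 neutrophil and marrow markers, 7 of 7 erythroid and 7 of 7 macrophage markers, 0 passed at an unadjusted p under 0.05 in edgeR. The same count was 0 of 6 for hair cells, 0 of 5 for spiral ganglion neurons, 0 of 5 for the stria vascularis and 0 of 5 for fibrocytes. The erythroid genes were all above 0, with a median log2 fold change of 0.57 and the lowest p for Hbb-bt (0.59 ± 0.31 SE, unadjusted p = 0.0823, adjusted p = 0.758 in edgeR). The median was 0.03 for cartilage, -0.01 for neutrophils and marrow, 0.07 for macrophages, -0.06 for hair cells, -0.01 for neurons, -0.08 for the stria and -0.16 for fibrocytes. The lowest p-values in the other lists belonged to Col10a1 (log2 fold change -0.84), Comp (0.17) and Lect1 (0.13) of cartilage, Ltf (0.58), Camp (-0.17) and Elane (-0.08) of neutrophils and marrow, and Mrc1 (-0.32), C1qa (0.32) and C1qb (0.11) of macrophages. Among erythroid genes Alas2 (0.59) and Hbb-bs (0.58) came after Hbb-bt. In the inner ear lists they belonged to Slc17a8 (-0.17), Otof (-0.06) and Myo7a (-0.05) of hair cells, Snap25 (-0.13), Gata3 (0.19) and Nefh (-0.06) of neurons, Kcne1 (-0.18), Dct (0.17) and Kcnq1 (-0.15) of the stria, and Coch (-0.20), Otos (0.23) and Tbx18 (-0.16) of fibrocytes.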

How the data were processed

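RNA from the cochleae of 8 untreated mice (4 WT and 4 Opa1+/-, 1 library each, 21 days old) was sequenced as paired reads of 80 bases by the authors, who used unique molecular identifiers, FastQC, and STAR on GRCm38/mm10. The reads were analysed with the CORALL Data Analysis Pipeline, whose counting program and strand setting are not given in the sources used here. The labels name alternative RNA extraction kits without saying which sample had which. The deposited values are raw counts per gene symbol, 15978051 to 20828030 per library, and 15 entries with a number for a name (0.112% to 0.124% of counts) were left out. Genes with a mean normalized count above 10 (19366 of 47628 entries) were tested with edgeR 4.0.16 (glmQLFit and glmQLFTest, TMM factors of 0.948 to 1.06) in R 4.3.3, and with DESeq2 1.42.0 as an alternative. P-values were adjusted by the Benjamini-Hochberg method, with a threshold of 0.05. CPM are counts per 1000000 counts of the TMM-scaled library, and log2 CPM used a prior count of 2. Every value rests on counts of 1 library, so depth limits the low genes, above all Tnfsf11. Scripts were tested on simulated data. Each library is a separate mouse, the WT mice being littermates of the Opa1+/- mice per the study's methods.

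The genes and lists were chosen with earlier results of these data known. Named are the 10 genes, Opa1, the 3 tested genes with the lowest unadjusted p of each list, and the 3 genes most like Ibsp, Ctsk and Tnfrsf11b. Bglap3, Xist, Ddx3y and genes below the filter serve as checks. Chondromodulin appears in the tables under the older symbol Lect1. Alternatives were other library scalings, other filters, robust estimation and leaving out mice.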

Additional observations from a re-analysis of the deposited data

Results flagged for a closer look

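In 62 groups of 4 mice (the 10 bone cell genes, Opa1, and the sums and ratios over lists), 4 held a highest or lowest mouse far from the others by Dixon's criterion. Chance gives about 1 in 20 groups, so 4 of 62 is close to the number that chance gives. The groups also share genes and are not independent. In Opa1+/- mice, Tnfrsf11b was 49.2 CPM in mouse H and 74.6 to 76.9 CPM in the others, and the sum of Tnfsf11 and Tnfrsf11b, which is nearly all Tnfrsf11b, was 49.97 CPM and 75.9 to 77.5 CPM. In WT mice, the sum of the 6 genes of the osteocyte list was 75.3 CPM in mouse 4 and 82.4 to 83.2 CPM in the others. Of these genes only Irx5 was lowest of the WT mice in mouse 4, at 13.9 CPM against 20.8 to 25.1 CPM. Mepe and Fgf23 were highest of the WT mice in mouse 4, at 11.5 and 6.16 CPM. The sum of neutrophil and marrow markers was 1329.8 CPM in WT mouse 4 and 407 to 497 CPM in the others.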

How the results depend on the processing

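No bone cell gene passed at an adjusted p under 0.05 in any of 17 alternatives, and 2 of 170 single values had an unadjusted p under 0.05, both of Tnfrsf11b. The genes called at an adjusted p under 0.05 numbered 5, and 25 with DESeq2's Wald test, 10 with robust estimation, 12 with no filter, 0 without both Opa1+/- mice with 3-digit numbers, 11 at a threshold of 0.1 and 0 to 9 with single mice left out. At an unadjusted p under 0.05, 679 genes were higher and 623 lower, and 285 and 280 without both 3-digit mice. The numbers were 459 higher and 778 lower with scaling by total counts alone, and 904 and 682 with no filter. With single mice left out the range was 340 (without WT mouse 8) to 1168 (without WT mouse 4) higher and 373 to 838 lower. Of the 10 genes, 0 to 1 were lower at that level with single mice left out, and 1 with no filter. Directions near 0 turned for 6 of the 10 genes. Bglap2 was -0.00089 with DESeq2 size factors, -0.00097 with DESeq2's Wald test, -0.019 with total counts and -0.033 without both 3-digit mice. With single mice left out the log2 fold change ran from -0.068 to 0.099 for Bglap2, -0.14 to 0.038 for Ibsp, -0.11 to 0.060 for Bglap, -0.081 to 0.17 for Dmp1, -0.18 to 0.012 for Phex and -0.23 to 0.22 for Acp5. Over the same mice r ran from 0.825 to 0.921 for Acp5 and Ctsk, 0.805 to 0.915 for Ibsp and Ctsk, -0.620 to 0.368 for Dmp1 and Phex and -0.370 to 0.235 for Sp7 and Ibsp. For Tnfsf11 and Tnfrsf11b it ran from 0.104 to 0.525. With single mice left out, the Opa1+/- to WT ratio of the summed CPM ran from 0.931 to 1.05 for osteoblast, 0.928 to 1.07 for osteocyte, 0.847 to 1.08 for osteoclast and 0.713 to 0.856 for RANKL and osteoprotegerin genes, and from 0.904 to 1.01 for all 10, so that 4 of these 5 ratios crossed 1. The cause of these changes was not tested. No analysis paired by litter was possible, because the labels give an animal number for each mouse and not its litter. Counts of 11 to 26 limit Tnfsf11.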
